A study of Isostichopus badionotus with 6 samples.

Results

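In the body wall transcriptome of captive *I. badionotus*, 2 assembled loci were named as ferritin, Locus_2435 and Locus_83545 (locus 2435 and locus 83545). In each, 1 transcript carries the ferritin gene of the sea cucumber *Stichopus monotuberculatus* as its nearest database match. Names were available for only 326 counted transcripts, so other ferritin loci may be present without a name. All rows of the deposited count table that belong to these loci were taken as members, which gave 9 transcripts of the 129776 counted, 8 from locus 2435 and 1 from locus 83545. The pair was chosen by the ferritin match and selected on the level of transcript 88 of locus 2435, which was already known to be higher in juveniles than in adults in these same libraries, so the difference between juveniles and adults is given for all members as a description, without a test.

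RNA was sequenced from the body wall of 6 captive animals, each giving 1 library. By the sample labels 4 of them, numbered 1 to 4, were juveniles in captivity, and 2, numbered 5 and 6, were adults adapted to captivity, whereas the series entry speaks of 6 farmed juveniles. All animals were kept in captivity and no wild library was analysed here. The study describes its farmed animals as first generation offspring of a brood-stock that spawned in tanks and was fed algae, and how old the captive adults were is not stated for these labels. Age, origin and time in captivity therefore cannot be told apart between the groups.

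Ferritin is a hollow protein shell that stores iron. Its ferroxidase subunits oxidise ferrous iron and deposit it inside the shell as a mineral, which keeps free iron away from reactions that make oxygen radicals, and the iron is released again when the shell is broken down in lysosomes. In vertebrates much of its control is at translation, where iron-regulatory proteins hold back ferritin mRNA when iron is scarce, so an mRNA level is not a protein level. In sea stars and sea cucumbers ferritin has been described in coelomocytes, the circulating immune cells, and is regarded as part of the innate defence that withholds iron from microbes.

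The libraries held 21714696 to 31742950 uniquely matched counts. Levels are given as CPM, the usual depth-scaled unit of counts, on library totals scaled by TMM, a factor that lines up the bulk of transcripts between libraries. The factors were 1.04 to 1.32 in the juveniles, 0.973 in adult 5 and 0.586 in adult 6, so adult 6 stood apart. Mitochondrial matches took 14.0% to 21.5% of the counts of juveniles, 20.1% of those of adult 5 and 21.7% of those of adult 6. Loci matched to 28S ribosomal RNA took 0.488% to 5.43%, 2.25% and 8.85% respectively. All 12 transcripts of the body wall matrix list, 8 of them matched to collagen, had counts in at least 1 animal, and their summed level ranged over 126 to 315 CPM for juveniles and 437 to 521 CPM for adults. The summed level of muscle transcripts ranged over 165 to 2112 CPM for juveniles and 2037 to 2295 CPM for adults, that of ciliary ones over 22.7 to 54.8 against 19.1 to 25.1 CPM, and that of neural ones over 54.8 to 111 against 124 to 159 CPM. None of these transcripts was at 0 in all animals, and the part of these differences in the ferritin values was not tested. In body wall RNA, fewer cells of a type and less RNA per cell cannot be told apart.

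Locus 2435 was a large and much divided assembly. Its row names count 89 transcripts, of which 8 are in the count table (8.99%), against 22.4% over the 579 loci with 50 or more transcripts and 34.1% over all 80132 loci. The members were short, from 117 to 406 nt with a median of 232 nt, where the median of all counted transcripts was 392 nt. The ferritin-matched transcripts were the longest and the shortest member: transcript 88 of locus 2435 has 406 nt and the only transcript of locus 83545 has 117 nt. The other 7 transcripts of locus 2435 carry no name in the sources used here, so their counts belong to the locus as the assembler built it and are not shown to be ferritin. Because only reads with a unique match were counted, reads that fit several transcripts of the locus were lost, and the levels of its single transcripts are uncertain.

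Transcript 88 of locus 2435, the ferritin-matched one, was higher in each of the 4 juveniles than in both adults. The 4 juveniles had 41.1, 31.8, 19.2 and 29.1 CPM in order of number, averaging 30.3 ± 9.0 (SD, n = 4). Adult 5 had 10.6 CPM and adult 6 had 8.47 CPM. The lowest juvenile lay well above the higher adult, and the ratio of the means was 3.18. These levels rested on 1464, 720, 651 and 1091 counts for the juveniles, on 245 for adult 5 and on 130 for adult 6. On the log2 scale the juvenile over adult fold change was 1.67 with a standard error of 0.42 in edgeR. This was the value that led to the choice of the locus.

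The transcript of locus 83545, which has the same ferritin match, did not separate the groups. Its level was 85.1, 84.8, 49.9 and 41.8 CPM from juvenile 1 through juvenile 4 (mean 65.4 ± 22.8, SD, n = 4), 60.3 CPM for adult 5 and 19.3 CPM for adult 6. Adult 5 lay between the 2 higher and the 2 lower juveniles, and adult 6 lay below all other animals. The log2 fold change was 0.72 with a standard error of 0.57, and it was 0.054 without adult 6 and 1.78 without adult 5, so which adult was kept set its size.

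Nearly all counts of locus 2435 came from 2 other transcripts, so the sum of the locus was not set by the ferritin-matched one. Transcript 8 (232 nt) and transcript 12 (281 nt) together held 90.1% to 95% of the counts of the locus, and transcript 88 held 0.561% to 1.58%. In the juveniles transcript 8 was at place 53 of the 129776 transcripts by mean CPM and transcript 12 at place 71, while transcript 88 was at place 3410. Per length the order was the same within the locus: the juvenile means were 6239 CPM per kilobase for transcript 8, 3546 for transcript 12, 412 for transcript 40 and 74.6 for transcript 88. The transcript of locus 83545 lay between transcripts 12 and 40 only on this scale, at 559 CPM per kilobase. By CPM its juvenile mean of 65.4 lay below that of transcript 40, which was 156. Its place thus rests on the division by length. The study states an average read length for its farmed animals that exceeds the length of this transcript. Whether levels per kilobase can be compared between such short transcripts was not tested.

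**Figure D1:**
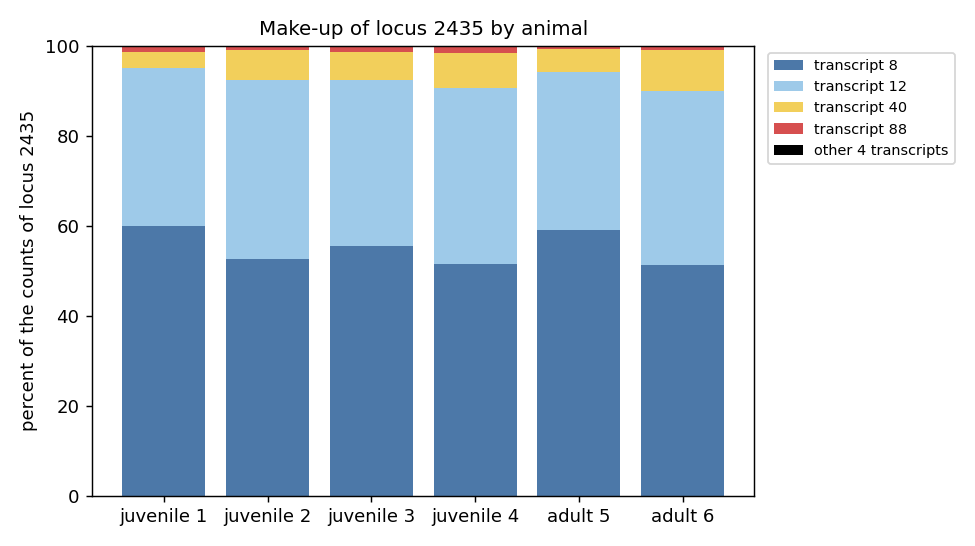
Share of the counts of locus 2435 taken by each of its transcripts, in percent, in 4 juveniles and 2 adults; the bars of each animal add up to the whole locus. Transcripts 8 and 12 fill 90.1% to 95% of every bar and the ferritin-matched transcript 88 fills 0.561% to 1.58%.

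For transcript 8 the juveniles, by number, had 1878, 2145, 815 and 952 CPM (mean 1448 ± 663, SD, n = 4), adult 5 had 1117 CPM and adult 6 had 453 CPM. For transcript 12 they had 1096, 1626, 542 and 721 CPM (mean 996 ± 479, SD, n = 4), against 662 CPM for adult 5 and 344 CPM for adult 6. In both transcripts juveniles 1 and 2 were the highest animals, adult 5 lay above juvenile 3, and adult 6 was the lowest. Adult 5 also lay above juvenile 4 in transcript 8 but not in transcript 12. The log2 fold changes were 0.88 (standard error 0.64) and 0.99 (standard error 0.61).

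Transcript 40 (379 nt) was the only other member with more than a trace of counts besides transcript 88. Its level by juvenile was 114, 279, 89.4 and 142 CPM, beside 98.5 CPM for adult 5 and 79.2 CPM for adult 6. Juvenile 2 was far above the other animals, which ranged from 79.2 to 142 CPM, and the groups overlapped through juvenile 3. The log2 fold change was 0.81 with a standard error of 0.55.

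The remaining 4 transcripts of locus 2435 had 0 to 27 counts in any animal and never reached 1 CPM. Transcript 43 (232 nt) had 14, 19, 27 and 18 counts by juvenile, 7 counts for adult 5 and 2 for adult 6. As CPM every juvenile (0.393 to 0.838) lay above both adults (0.303 and 0.130), on very few reads. How often this occurs among transcripts with so few counts was not computed. Without a filter the median log2 fold change over 107370 transcripts was 0.75, against 0.11 over the tested ones. Transcript 1 (145 nt) had 1 to 8 counts in every animal, transcript 15 (347 nt) had 2 to 20 counts in 5 animals and none in adult 6, and transcript 6 (160 nt) had 2 counts in each of 3 animals and none in juveniles 1 and 2 and adult 6. A count of 0 in adult 6 allows up to 0.195 CPM, taken as 3 counts.

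**Figure D2:**
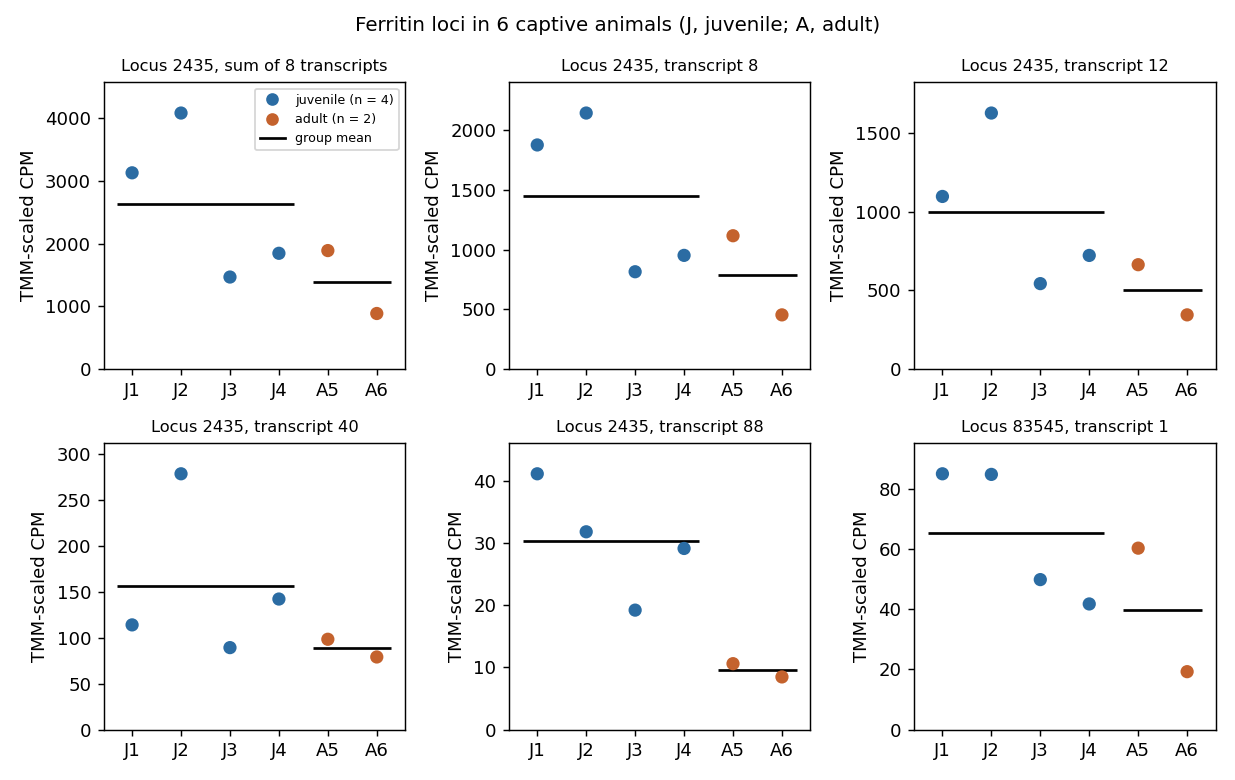
Level of locus 2435 as a sum, of its 4 transcripts with the most counts and of locus 83545, in CPM on totals scaled by TMM (vertical axes start at 0), in each of 4 juveniles (J1 to J4) and 2 adults (A5 and A6), with lines at the group means. Transcript 88 is the only panel in which all juveniles lie above both adults; in the sum of the locus adult 5 (1889 CPM) lies above juveniles 3 (1467 CPM) and 4 (1845 CPM).

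At the level of the locus the juvenile mean stayed above the adult mean, but the groups overlapped and the distance was smaller than for transcript 88. The summed counts of locus 2435 came to 3130.1, 4084, 1467 and 1845 CPM by juvenile (mean 2632 ± 1202, SD, n = 4), to 1889 CPM for adult 5 and to 885 CPM for adult 6. Adult 5 lay above juveniles 3 and 4, so the separation seen for transcript 88 did not hold for the locus. The ratio of the means was 1.90, against 3.18 for transcript 88. The log2 fold change was 0.92 with a standard error of 0.62, and the juveniles alone had an SD of 0.68 on this scale.

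Leaving transcript 88 out of the sum changed little, with a log2 fold change of 0.92 and a standard error of 0.63. The difference of the locus was thus carried by the unnamed transcripts. With both loci summed the log2 fold change was 0.92 (standard error 0.62), the juveniles lay between 1516 and 4169 CPM, and adults 5 and 6 stood at 1949 and 904 CPM. Without adult 6 the log2 fold change of the locus was 0.42, and without adult 5 it was 1.59, where the remaining adult lay below all juveniles. Each adult thus moved the value more than any juvenile did: without juveniles 1 to 4 in turn it was 0.76, 0.57, 1.07 and 1.00. The group sizes alone favour this, since 1 of 2 adults weighs more in its group than 1 of 4 juveniles. For transcript 88 the log2 fold changes were 1.42 to 1.85 over the animals left out. Its groups were apart to begin with, and leaving out an animal cannot bring them together except through small changes of scaling. That they stayed apart is therefore no further evidence.

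**Figure D3:**
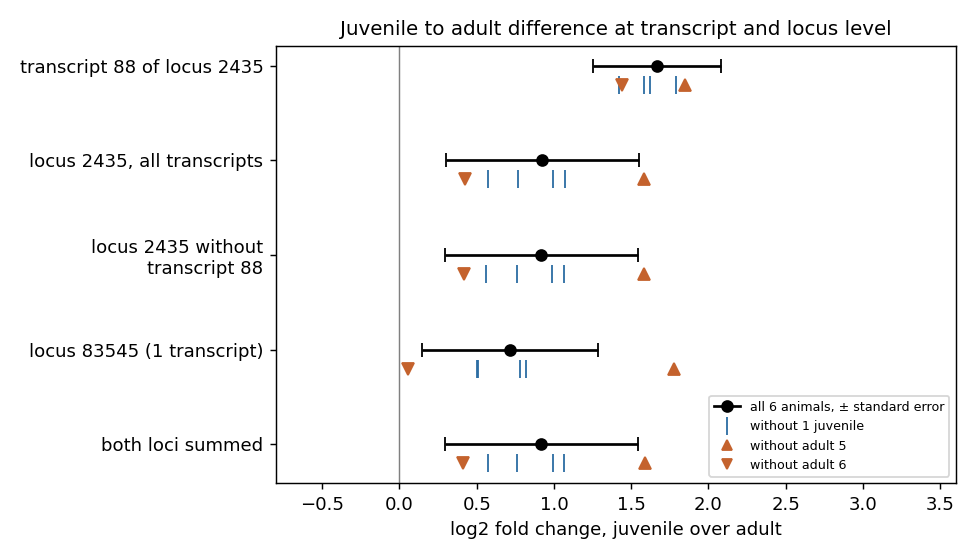
Log2 fold change of juveniles over adults from edgeR for transcript 88, for locus 2435 with and without it, for locus 83545 and for both loci summed; black points with bars give the value of all 6 animals ± standard error, and the marks below them give the value without 1 juvenile (ticks), adult 5 (upward triangles) or adult 6 (downward triangles). Transcript 88 stays between 1.42 and 1.85, while locus 83545 runs from 0.054 to 1.78 depending on the adult left out.

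Across the whole table few features, if any, were called between these groups. In edgeR's quasi-likelihood test with Benjamini-Hochberg adjustment 0 of 9979 tested transcripts (0%) passed an adjusted p under 0.05. An unadjusted p under 0.05 was found for 828 (8.3%), and DESeq2 called 198 and the exact test of edgeR 11. In simulated juveniles and adults the quasi-likelihood test recovered 0% of 2-fold, 18% of 4-fold and 40% of 8-fold changes. DESeq2 recovered 28%, 66% and 98% of them. The 0 calls therefore do not show that the groups were alike. The simulated counts took their spread from edgeR's fit to these libraries. Recovery alone also does not tell how many calls of a tool are false. Of the 9 members 5 were tested, since the others lay under the required 3 CPM in at least 3 juveniles and both adults. All 5 had a log2 fold change above 0, as had 57.5% of all tested transcripts, with a median of 0.88 against 0.11. In 1 of the 5, transcript 88, all juveniles lay above both adults, which was the case in 12.3% of all tested transcripts. Among loci summed in the same way 0 of 8876 (0%) were called, 805 (9.07%) had an unadjusted p under 0.05, and DESeq2 and the exact test called 233 and 3. Both ferritin loci had a log2 fold change above 0, as had 63.9% of the tested loci. All juveniles lay above both adults in 14.5% of the loci and below both in 6.69%, and neither ferritin locus was among them. With 4 against 2 animals an exact rank-sum test of a single value cannot give a two-sided p below 0.133.

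As a part of the whole library locus 2435 ranked among the most abundant loci. It held 0.351%, 0.426%, 0.166% and 0.244% of all counts by juvenile, 0.184% for adult 5 and 0.0519% for adult 6. By CPM it was at place 28, 21, 36 and 29 among 80132 loci in the juveniles, at place 44 in adult 5 and at place 144 in adult 6. Locus 83545 was at places 1163 to 2414 in the juveniles, 1601 in adult 5 and 3803 in adult 6. Adult 6 had the smallest share of its library and the lowest place for both loci. Such a share also moves with the other RNA in a library, and adult 6 had the lowest TMM factor (0.586) and the most 28S matches (8.85%); their part in its value was not tested.

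Shares within the locus, which do not depend on scaling between libraries, differed between animals but not in step with the groups. Transcript 88 made up 1.31%, 0.778%, 1.31% and 1.58% of the locus by juvenile, 0.561% for adult 5 and 0.957% for adult 6. Adult 5 had the lowest share, but adult 6 lay above juvenile 2, and their 95% Wilson intervals (0.807% to 1.14% and 0.723% to 0.837%) overlapped. These intervals cover counting error only and take each count as independent, which reads of the same pair would not be. Transcript 40 made up 3.65% of the locus in juvenile 1 and 5.21% in adult 5, but 6.09% to 7.71% in juveniles 2 to 4 and 8.95% in adult 6. Juvenile 1 and adult 5 were also the animals with the highest share of transcript 8 and the lowest of transcript 12 (35.0% and 35.1%, against 37.0% to 39.8% in the others).

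The ferritin-matched fragment of locus 83545 varied with the abundant, unnamed transcripts of locus 2435 more closely than transcript 88 did. For every 1000 counts of transcript 8, locus 83545 had 45.3, 39.5, 61.2 and 43.9 counts by juvenile, 54.0 for adult 5 and 42.5 for adult 6. The largest of these ratios was 1.55 times the smallest, while the level of transcript 8 itself varied 4.74-fold between animals. Transcript 12 kept an even narrower ratio, from 584 to 758 counts. Transcript 40 ranged from 60.8 to 175 and transcript 88 from 9.49 to 30.6, a 3.22-fold span.

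**Figure D4:**
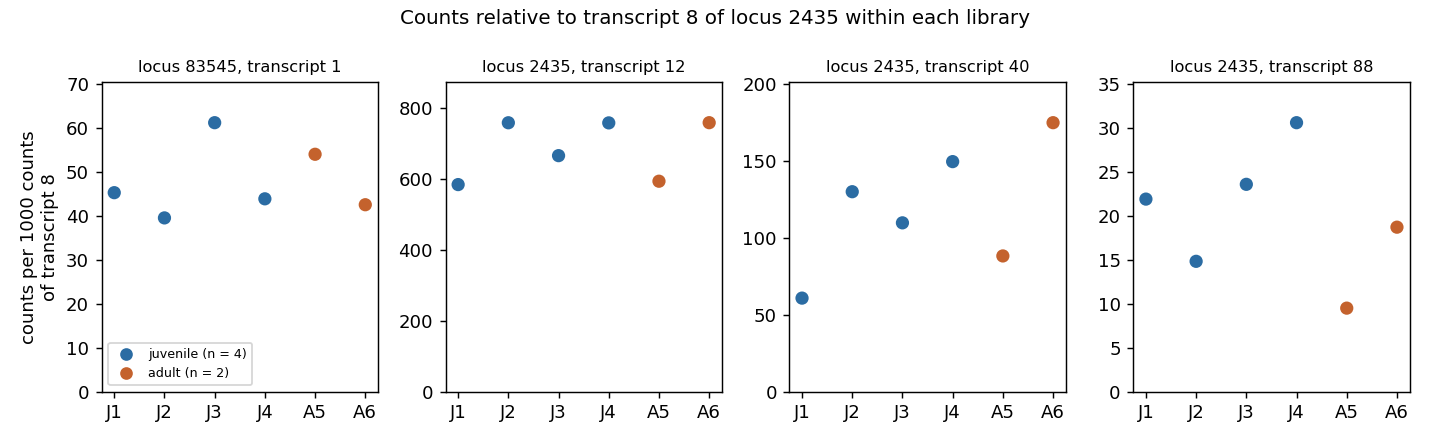
Counts of 4 members for every 1000 counts of transcript 8 of locus 2435 in the same library, in 4 juveniles (J1 to J4) and 2 adults (A5 and A6); vertical axes start at 0 and need no scaling between libraries. Locus 83545 (39.5 to 61.2) and transcript 12 (584 to 758) stay within a narrow band, while transcript 40 (60.8 to 175) and transcript 88 (9.49 to 30.6) spread widely.

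Among the annotated transcripts of other loci, the one most like locus 2435 by Pearson's r was the ferritin fragment of locus 83545. This r was taken on log2 CPM with the summed locus over the 6 animals, for 247 annotated transcripts, as a description of libraries that share their scaling. Locus 83545 came first with r = 0.93, but by Spearman's rho (0.89) it stood behind retinol dehydrogenase 12-like (0.94). Over all 9975 tested transcripts of other loci, named or not, 95 had an r as high, and the median was 0.00. The next in order were retinol dehydrogenase 12-like (locus 18373, r = 0.91), an enzyme of retinoid metabolism, and tenascin R (locus 5998, r = 0.87), an extracellular matrix glycoprotein known from the vertebrate nervous system. They were followed by a transcript of locus 11929 matched only to a fish chromosome (r = 0.84) and by axonemal dynein heavy chain 10 (locus 1543, r = 0.79), a motor of cilia. Tenascin R had 61.1, 45, 26.3 and 35.7 CPM by juvenile, 19.9 CPM for adult 5 and 14.4 CPM for adult 6. All its juveniles lay above both adults, as in 12.3% of all tested transcripts and unlike in either ferritin locus, and it was the only one of the 10 tested matrix transcripts with a log2 fold change above 0.

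The other tested transcripts of iron handling lay on both sides of 0 and were not called, as were 0 of all 9979 tested transcripts. The list held 4 annotated transcripts, of which 2 were tested and 0 were called, with a median log2 fold change of 0.89 against 0.11 over all tested transcripts. Major yolk protein 2, which in sea urchins is related to the iron carrier transferrin, reached 283 CPM for juvenile 1, with 31.4, 20.0 and 47.3 CPM for the other juveniles, 36.5 CPM for adult 5 and 5.73 CPM for adult 6 (log2 fold change 2.17, standard error 1.30, adjusted p = 0.589 from edgeR). Its mean was set by juvenile 1. Mitochondrial aconitate hydratase, an iron-sulfur enzyme of the citric acid cycle, averaged 109 ± 34.0 CPM over juveniles (SD, n = 4), with 171 CPM for adult 5 and 117 CPM for adult 6 (log2 fold change -0.40, standard error 0.43, adjusted p = 0.759 from edgeR). IscU, the scaffold on which iron-sulfur clusters are built, and sideroflexin-1, a mitochondrial serine carrier in human cells, were under the filter, IscU with juveniles at 3.88 to 5.3 CPM and adults at 5.75 and 2.02 CPM, sideroflexin-1 with juveniles at 7.81 to 11.5 CPM and adults at 8.09 and 3.06 CPM.

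Of 4 annotated transcripts that make or handle reactive oxygen 3 were tested and 0 were called, as were 0 of all 9979 tested transcripts. These 3 had a log2 fold change below 0, with a median of -1.20, where 57.5% of all tested transcripts were above 0. Dual oxidase 2-like, a membrane enzyme whose product is hydrogen peroxide, had 219, 646, 445 and 287 CPM by juvenile, 761 CPM for adult 5 and 1151 CPM for adult 6 (log2 fold change -1.26, standard error 0.53, adjusted p = 0.560 from edgeR). NAD(P) transhydrogenase, which in mammals supplies mitochondria with NADPH for the removal of peroxide, averaged 85.9 ± 15.1 CPM over juveniles (SD, n = 4), with 175 CPM for adult 5 and 218 CPM for adult 6 (log2 fold change -1.20, standard error 0.36, adjusted p = 0.560 from edgeR). In both of them all juveniles lay below both adults, the opposite of transcript 88, and 8.55% of all tested transcripts did so. Peptide methionine sulfoxide reductase, which repairs oxidised methionine, overlapped between groups with juveniles at 58.5 to 141 CPM, adult 5 at 131 CPM and adult 6 at 106 CPM (log2 fold change -0.35, standard error 0.44, adjusted p = 0.796 from edgeR). Mitochondrial reactive oxygen species modulator 1, which in human cells raises the output of oxygen radicals, was under the filter with juveniles at 6.11 to 8.0 CPM, adult 5 at 7.65 CPM and adult 6 at 4.04 CPM, so that its juvenile mean (7.14 CPM) lay above its adult mean (5.85 CPM).

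The lysosome, where ferritin is broken down, and the immune list gave no called transcript, and neither did the rest of the 9979 tested transcripts. Of all tested transcripts 57.5% had a log2 fold change above 0. Of 6 lysosomal transcripts 5 were tested and 0 called, with 1 log2 fold change above 0 and a median of -0.18. Cathepsin L, a lysosomal protease and the most abundant of them, averaged 626 ± 176 CPM over juveniles (SD, n = 4), with 781 CPM for adult 5 and 343 CPM for adult 6. Of 5 immune transcripts 3 were tested and 0 called, with 1 log2 fold change above 0 and a median of -0.80. SOCS2, a suppressor of cytokine signalling, was the one above 0, with juveniles at 6.66 to 19.9 CPM, adult 5 at 9.21 CPM and adult 6 at 8.60 CPM. The annotated names come from the study's table of transcripts it reports as differentially expressed between wild and farmed animals, used in shortened form. The lists therefore hold only transcripts of its available rows, selected on that comparison, and are not an independent choice.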

How the data were processed

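HISAT2, whose version no source used here states, was run by the authors against their own assembly, built from wild adults. Paired-end reads that matched once were tallied, and the deposited values are these raw counts for each transcript, 1 column per animal. Per the labels edgeR 3.20.9 was used later. Names are the nearest database matches in the study's table of transcripts it reports as differentially expressed between wild and farmed animals. From it 326 annotated transcripts were used, all found among the counted ones, so the annotated transcripts are a selected set.

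Computation used R 4.3.3, edgeR 4.0.16 and DESeq2 1.42.0. Counts were summed per locus from the row names. Transcripts and loci that reached 3 CPM of plain totals in both adults and no fewer than 3 juveniles were fitted with edgeR's quasi-likelihood test without covariates, on TMM factors of the transcript table. The standard error is the log2 fold change divided by the root of the F statistic. Scripts were tested on simulated data. No 2 columns were identical.

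The members and lists were chosen with earlier results of these data known. Named were all members, the tested iron and redox transcripts with those under the filter, and the 5 annotated transcripts most like locus 2435. Examples of the lysosomal and immune lists, and the values given for tenascin R, were chosen after their values had been seen. Alternatives covered scaling, library totals without mitochondrial and ribosomal RNA loci, the tool, the filter, members of 150 nt or longer, and leaving out each animal.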

Additional observations from a re-analysis of the deposited data

Results flagged for a closer look

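Major yolk protein 2 (transcript 2 of locus 3956) stood far from the other juveniles in 1 animal. Juvenile 1 had 283 CPM, against 20.0 to 47.3 CPM in the other 3 juveniles, so that the gap took up 0.896 of the range of the group, above the 95% critical value of Dixon's test for 4 values. It was found among 20 sets of juvenile values, and chance alone marks about 1 in 20. None of the 5 ferritin members above the filter and neither ferritin locus was marked.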

How the results depend on the processing

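The log2 fold changes of both loci, of transcript 88 and of their sums stayed above 0 in every alternative. For locus 2435 all 16 alternatives moved it by less than the SD of the juveniles, from 0.42 to 1.59 when 1 animal was left out and from 0.86 to 1.33 otherwise, and the groups overlapped in 15 of them, the exception being without adult 5. Without transcript 88 the sum ran from 0.41 to 1.58 over the animals left out, and both loci together from 0.41 to 1.59. Transcript 88 ran from 1.42 to 1.85 over the animals left out, and rose to 2.19 with library totals alone, a scaling that also moved the median of all tested transcripts from 0.11 to 0.67. Locus 83545 ran from 0.054 (without adult 6) to 1.78 (without adult 5) over the animals left out. Called transcripts numbered 198 with DESeq2, 11 with the exact test and 6 without a filter, and called loci 233, 3 and 5, against 0 in the main test and in every fit that left out 1 animal. The causes were not tested. With 2 adults that differ from each other, the difference between the groups rests on few animals, and the age, origin and captivity of the adults cannot be told apart.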
